A study of Mus musculus with 6 samples.

Results

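The PDGF and Kit genes encode closely related receptor tyrosine kinases and the ligands that bind them. The 7 symbols Pdgfra, Pdgfrb, Pdgfa, Pdgfb, Pdgfc, Kit and Kitl defined the set, and 5 of the 7 had a row among the 14774 genes of the deposited table, while Pdgfa and Pdgfc were not analysed here. The set was chosen by how some of these genes differed in this same contrast, so their levels and differences are given as a description, and no test is read for them. RNA was sequenced from the mouse Leydig tumor line MA-10 and from STARKO1, a line that was cloned from 1 cell of MA-10 after exon 2 of Star had been targeted with CRISPR/Cas9. Both were untreated, with 3 libraries of total RNA each, and no source says whether the libraries of a cell line came from separate cultures, so p-values measure the spread between these libraries, which may be technical. Because STARKO1 is 1 clone, the knockout and the properties of that clone cannot be told apart.

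PDGF ligands are dimers of A, B, C or D chains, and each dimer draws 2 receptor molecules together, PDGF receptor alpha, PDGF receptor beta or 1 of each, so that the kinase domains phosphorylate each other. Kit does the same with its own ligand, stem cell factor, which the gene Kitl encodes as a membrane protein that can be shed. In the testis, Pdgfra marks precursors of Leydig cells and other interstitial cells and receives PDGF-A from the tubules, Pdgfrb marks vascular mural cells and stroma, and Kit acts in differentiating germ cells and in Leydig cells, with Kitl made largely by Sertoli cells. Downstream, both receptor groups use phosphatidylinositol 3-kinase, phospholipase C gamma, Src kinases and the Ras and ERK cascade.

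Pdgfra and Kit are neighbours on mouse chromosome 5 (GRCm38), both on the plus strand, with 376.7 kb between the end of Pdgfra and the start of Kit. The sequences before their starts (RefSeq, GRCm38.p6) are shown because the RNA of these neighbours differed in opposite directions between the cell lines. The Pdgfra stretch is chr5:75152001-75152250 and the Kit stretch is chr5:75574737-75574915, both on the plus strand and ending before every annotated start used here. Capitals mark matches to GGGCGG, the GC box, on either strand.
Pdgfra: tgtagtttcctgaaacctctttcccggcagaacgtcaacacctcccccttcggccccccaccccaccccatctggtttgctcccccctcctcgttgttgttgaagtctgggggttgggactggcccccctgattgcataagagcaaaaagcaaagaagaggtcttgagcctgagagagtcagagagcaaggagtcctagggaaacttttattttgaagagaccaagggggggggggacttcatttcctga
Kit: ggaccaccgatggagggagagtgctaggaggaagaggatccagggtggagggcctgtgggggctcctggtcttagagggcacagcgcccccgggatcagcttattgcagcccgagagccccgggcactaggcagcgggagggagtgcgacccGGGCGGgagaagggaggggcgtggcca
The Kit stretch held 1 GC box, 98 bases before the first RefSeq start of Kit and 102 bases before the second. The Pdgfra stretch held none. A GC box occurred in 35.7% of 32851 RefSeq promoters, each searched from 250 bases before to 50 bases after the start, and over this same window Kit held 1 and Pdgfra 0. Neither promoter held the cAMP response element TGACGTCA, the SF-1 site CAAGGTCA or TATAAA, which occurred in 1.79%, 1.56% and 13.6% of all promoters. Of the 250 bases before the start, 54.4% were G or C in Pdgfra and 70.8% in Kit, where the middle range of all promoters, from the lower to the upper quartile, was 45.2% to 61.2%. The Kitl promoter (chromosome 10, plus strand) had 69.2% G or C, with 3 GC boxes, of which those at -45 and -41 overlap, and a TATAAA at -25 from its RefSeq start. A match or its absence describes these letters only. Pdgfb had no entry among these sequences.

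The total count was between 14114351 and 19530062 per library, and counts were scaled by edgeR's TMM method to counts relative to 1000000 (CPM). Star, the targeted gene, had 697 to 1261 counts per MA-10 library and 36 to 48 per STARKO1 library (adjusted p = 0.00121, edgeR's quasi-likelihood test). MA-10 replicate 1 stood apart from the other MA-10 libraries. Over 8538 genes (genes are no independent replicates), the Pearson correlation of log2 CPM was between 0.802 and 0.974 among MA-10 libraries, between 0.995 and 0.996 among STARKO1 libraries, and between 0.949 and 0.955 for MA-10 replicate 1 with the STARKO1 libraries. Where leaving out MA-10 replicate 1 moved a fold of a gene described here by over 1.5 times or changed its direction, the value without it is also given. Scaling matters as well, since the median log2 fold change of all genes was -0.05 with TMM and 0.38 with library size alone. Relative to library size alone, TMM raised the levels in MA-10 replicates 2 and 3 and lowered them in every other library.

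Of the 5 measured genes, 4 passed the filter on low counts and 1 of these 4, Pdgfra, passed an adjusted p of 0.05, where 9.04% of all 11939 genes tested did, 4.3% higher and 4.74% lower in STARKO1 cells. In 4 of the 5 measured genes, and in 3 of the 4 tested, the libraries of the cell lines did not overlap, which held for 42.5% of all genes tested. Since the set was selected on this contrast, nothing is read from these shares.

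**Figure D1:**
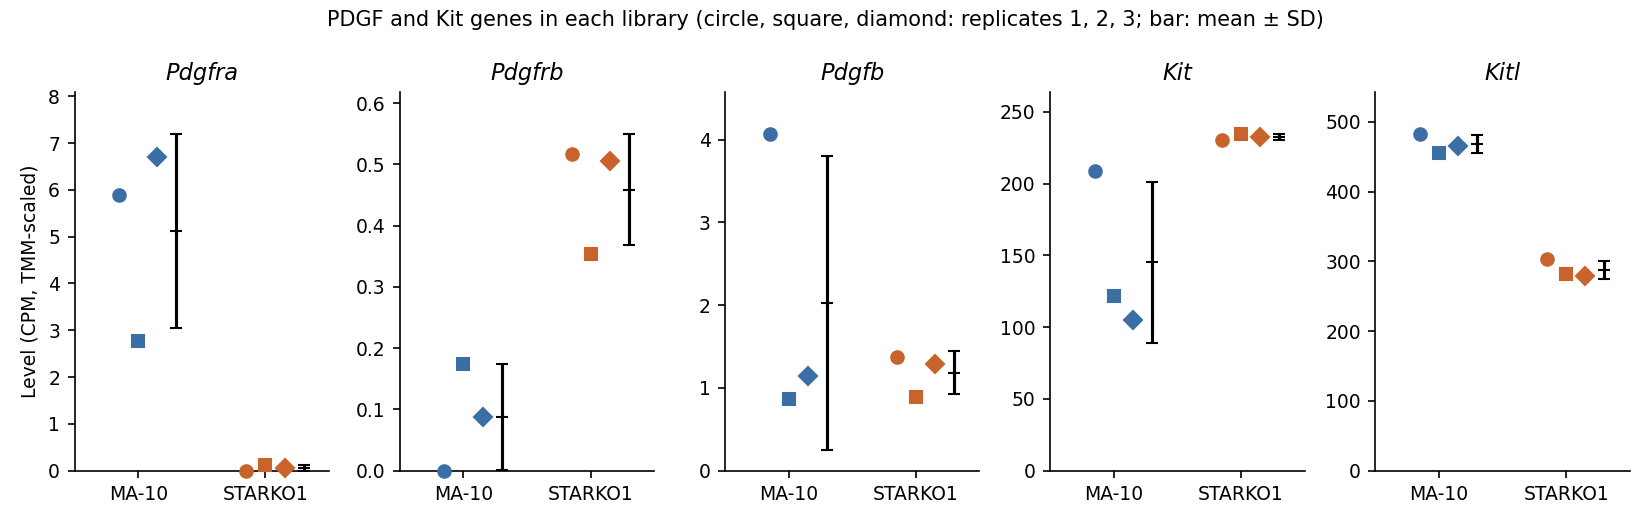
Levels of Pdgfra, Pdgfrb, Pdgfb, Kit and Kitl in CPM (vertical axes, a separate linear scale for each gene) in the 3 MA-10 and 3 STARKO1 libraries, with circles, squares and diamonds for replicates 1, 2 and 3 and bars for the mean ± SD. Pdgfra lies between 2.78 and 6.69 CPM in MA-10 cells and at or below 0.118 CPM in STARKO1 cells, Kitl is lower and Kit higher in every STARKO1 library, and Pdgfb overlaps.

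Pdgfra (chromosome 5, 75152292 to 75198216), the receptor for PDGF-A as well as other PDGF dimers, was present at a low level in MA-10 cells and near 0 in STARKO1 cells. Its counts in replicates 1, 2 and 3 were 103, 32 and 76 for MA-10, and 0, 2 and 1 for STARKO1. These counts correspond to 5.90, 2.78 and 6.69 CPM, and to 0, 0.118 and 0.0562 CPM. Every MA-10 library was above every STARKO1 library, and MA-10 replicate 1, which resembled STARKO1 across genes, was not the lowest MA-10 library for Pdgfra. MA-10 cells had a mean of 5.12 ± 2.07 CPM and STARKO1 cells of 0.0580 ± 0.0590 CPM (SD, n = 3 each). All STARKO1 libraries were at or under the floor of 3 counts per library, which is at most 0.177 CPM. Against the MA-10 mean, Pdgfra RNA was thus at least 29.0-fold lower in STARKO1 cells. The bound leaves out the spread of the MA-10 libraries, of which the lowest was at 2.78 CPM. This bound was 22.5-fold with scaling by library size alone, and between 24.6-fold and 35.7-fold when 1 library was left out. In bulk RNA, fewer cells with the transcript and less transcript in each cell cannot be told apart. The annotation holds an antisense gene, Gm42802, over 599 bases of Pdgfra, and the strand setting of the counting is not given in the sources used here.

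Pdgfrb (chromosome 18, 61045150 to 61085062, plus strand), the receptor that binds PDGF-B most strongly, was barely detected in either cell line and did not pass the filter. Its counts were 0, 2 and 1 for MA-10 and 12, 6 and 9 for STARKO1. In STARKO1 cells these were 0.516, 0.354 and 0.506 CPM, and in MA-10 cells 0, 0.173 and 0.0881 CPM. Every STARKO1 library was above every MA-10 library, although all 6 values were below 1 CPM. Against the MA-10 floor of at most 0.264 CPM, Pdgfrb RNA was at least 1.74-fold higher in STARKO1 cells, and at least 2.54-fold with scaling by library size alone.

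Kit (chromosome 5, 75574916 to 75656723), the receptor for stem cell factor, had the highest level per kilobase of exon of the 3 receptors in both cell lines. Its counts were 3648, 1402 and 1190 in the MA-10 replicates and 5346, 3977 and 4133 in the STARKO1 replicates. Scaled, Kit had 208.9, 121.6 and 104.8 CPM in MA-10 cells and 230.0, 234.4 and 232.2 CPM in STARKO1 cells. The STARKO1 libraries lay within a narrow range above all MA-10 libraries, and MA-10 replicate 1 was close to them while the other two MA-10 libraries were far below. MA-10 cells had a mean of 145 ± 55.9 CPM and STARKO1 cells of 232 ± 2.23 CPM (SD, n = 3 each), with log2 fold change 0.68 (standard error, SE, 0.280), or 1.60-fold. Without MA-10 replicate 1 the log2 fold change was 1.13, without any other single library it lay between 0.49 and 0.77, and it was 1.02 with scaling by library size alone.

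Among the ligands, Pdgfb (chromosome 15, 79995874 to 80014978, minus strand), which encodes the B chain, was low and did not separate the cell lines. Its counts were 71, 10 and 13 in the MA-10 replicates and 32, 15 and 23 in the STARKO1 replicates. The corresponding levels were 4.07, 0.867 and 1.14 CPM in MA-10 cells and 1.38, 0.884 and 1.29 CPM in STARKO1 cells. MA-10 replicate 1 was the highest of all libraries, MA-10 replicate 3 lay within the STARKO1 range, and MA-10 replicate 2 lay just below its lowest library. The log2 fold change was -0.81 (SE 0.603) with all libraries and 0.34 without MA-10 replicate 1, so 1 library set its direction. An antisense gene, Gm41361, overlaps 2648 bases of Pdgfb in the annotation.

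Kitl (chromosome 10, 100015630 to 100100417), which encodes stem cell factor, had the highest level per kilobase of exon of the 5 genes in both cell lines. The replicates of MA-10 had 8423, 5256 and 5287 counts, and those of STARKO1 7037, 4773 and 4962. With TMM these were 482.4, 455.9 and 465.6 CPM in MA-10 cells and 302.7, 281.4 and 278.8 CPM in STARKO1 cells. The libraries of each cell line were close together, MA-10 replicate 1 included, and the cell lines did not overlap. MA-10 cells had a mean of 468 ± 13.4 CPM and STARKO1 cells of 288 ± 13.1 CPM (SD, n = 3 each), with log2 fold change -0.70 (SE 0.170), or 1.63-fold lower in STARKO1 cells. The separation of Kitl depended on the scaling. With library size alone, Kitl had 557.2, 298.3 and 374.9 CPM in the MA-10 replicates and 360.6, 330.8 and 326.9 CPM in the STARKO1 replicates, so MA-10 replicate 2 lay below the STARKO1 range and the log2 fold change was -0.27. With upper quartile scaling it was -0.56 and the cell lines did not overlap, and with TMM but without MA-10 replicate 1 it was -0.59.

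The ratio of Kitl to Kit within a library does not depend on how libraries are scaled. Counted per base of exon, it was 3.48, 5.65 and 6.70 in the MA-10 replicates and 1.98, 1.81 and 1.81 in the STARKO1 replicates. Kitl RNA thus exceeded Kit RNA in all 6 libraries, and by more in every MA-10 library than in any STARKO1 library. The mean ratio was 5.28 ± 1.64 (SD, n = 3) in MA-10 cells and 1.87 ± 0.101 (SD, n = 3) in STARKO1 cells, which differ 2.83-fold.

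**Figure D2:**
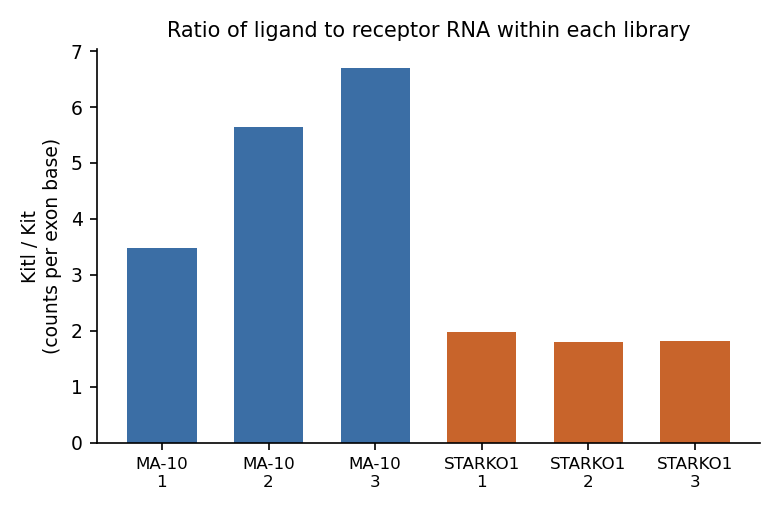
Ratio of Kitl to Kit counts per base of exon (vertical axis, linear from 0) in each of the 6 libraries. The ratio lies between 3.48 and 6.70 in MA-10 cells, with replicate 1 lowest, and between 1.81 and 1.98 in STARKO1 cells.

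Per kilobase of exon, the level was highest for Kitl, with 79.2 ± 2.27 CPM per kb in MA-10 cells and 48.7 ± 2.22 CPM per kb in STARKO1 cells (SD, n = 3 each). Kit followed with 16.3 ± 6.27 CPM per kb in MA-10 cells and 26.1 ± 0.251 CPM per kb in STARKO1 cells. Pdgfra, Pdgfrb and Pdgfb were each below 1 CPM per kb on average in both cell lines. In MA-10 cells Pdgfra (0.511 ± 0.207 CPM per kb) and Pdgfb (0.487 ± 0.426 CPM per kb) did not differ beyond their spread, and Pdgfrb was lowest at 0.0159 ± 0.0158 CPM per kb. In STARKO1 cells the order of the low genes was Pdgfb, with 0.285 ± 0.0633 CPM per kb, then Pdgfrb, with 0.0837 ± 0.0166 CPM per kb, then Pdgfra, with 0.00579 ± 0.00588 CPM per kb.

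The genes most like Kit and Pdgfra were found by the root mean square difference of log2 CPM, centred per gene, over the 6 libraries, among 11346 genes. Those closest to Kit were Eef1g (0.0303), a subunit of translation elongation factor 1, Arfgap1 (0.0462), an activator of Arf GTP hydrolysis, and Cdc34 (0.0555), a ubiquitin-conjugating enzyme, where the median gene differed by 0.565. Eef1g had 394.1, 227.8 and 208.3 CPM in the MA-10 replicates and 435.9, 449.9 and 454.7 CPM in the STARKO1 replicates, so it shared with Kit a high value in MA-10 replicate 1. Closest to Pdgfra were Maob (0.387), which encodes monoamine oxidase B, Mreg (0.405), which encodes melanoregulin, and Serpinb6b (0.478), a serine protease inhibitor gene, where the median gene differed by 2.45. Maob had 8.42, 6.94 and 10.1 CPM in the MA-10 replicates and 0.215, 0.236 and 0.281 CPM in the STARKO1 replicates. These are descriptions over 6 libraries, which all genes share.

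Other genes of the same signalling pathways were then tested with edgeR's quasi-likelihood test across all genes, to see whether their RNA also differed between the cell lines. Of 128 genes in 5 lists, 98 were measured and 95 tested, and 11 of them (11.6%) passed an adjusted p of 0.05, against 9.04% of all genes tested. Of the 11, 6 were higher and 5 lower in STARKO1 cells, and the median log2 fold change was 0.06 over the 95 genes and -0.05 over all genes. The libraries of the cell lines did not overlap for 41 of the 95 genes (43.2%), against 42.5% of all genes. Without MA-10 replicate 1 the count was 65 (68.4%), where 65.7% of all genes passed. Without MA-10 replicate 2 it was 5 (5.21%), against 4.19% of all genes. Without MA-10 replicate 3, or without STARKO1 replicate 1, 2 or 3, edgeR called 0 of the genes, with 24, 21, 24 and 20 genes at an unadjusted p under 0.05. In these fits 1.5%, 0.73%, 1.11% and 0.76% of all genes passed. With all libraries 35 genes had an unadjusted p under 0.05. DESeq2 called 25 (26.3%), against 28.4% of all genes. Scaled by library size alone, edgeR called 0, against 2.76% of all genes, with 20 pathway genes at an unadjusted p under 0.05.

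**Figure D3:**
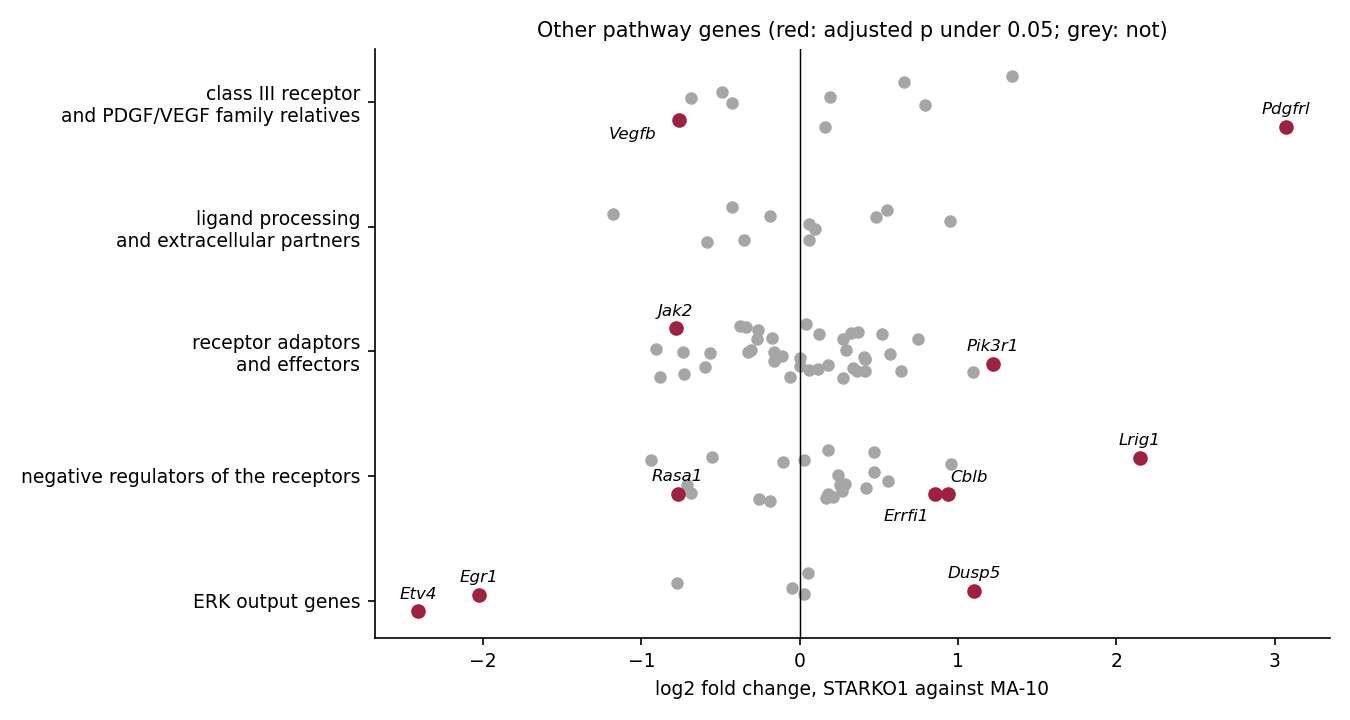
Log2 fold change of the 95 tested pathway genes (horizontal axis, STARKO1 against MA-10), 1 row of points for each of the 5 lists, with genes at an adjusted p under 0.05 in red and named, and the others in grey. Pdgfrl and Lrig1 lie farthest to the right and Etv4 and Egr1 farthest to the left of the genes that passed.

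Among relatives of the receptors and ligands, 2 of the 10 tested genes passed (20%, against 9.04% of all genes tested). Pdgfrl, which encodes a secreted protein resembling the extracellular part of a PDGF receptor, rose in STARKO1 cells. Its counts were 10, 0 and 4 for MA-10 and 68, 46 and 52 for STARKO1, so its MA-10 level was close to the floor. The log2 fold change was 3.07 (SE 0.648, adjusted p = 0.0371, edgeR), and 4.06 without MA-10 replicate 1, which held most of the MA-10 counts. Vegfb, a ligand of VEGF receptor 1, fell from 87.8 ± 8.85 to 51.7 ± 3.42 CPM (SD, n = 3 each, adjusted p = 0.0335, edgeR). The fall of Vegfb depended on the scaling. Its log2 fold change was -0.77 with TMM and -0.61 with upper quartile scaling (adjusted p = 0.0582, edgeR). With library size alone it was -0.31 (adjusted p = 0.353, edgeR). Pdgfd, which encodes the D chain, had 35.5, 52.0 and 51.8 CPM in the MA-10 replicates and 34.7, 35.8 and 33.0 CPM in the STARKO1 replicates. The log2 fold change of Pdgfd was -0.43 (adjusted p = 0.151, edgeR), and it turned to 0.065 with library size alone. Csf1r, the receptor for colony stimulating factor 1 and a close relative of Kit, had 6.75 ± 2.63 and 7.61 ± 1.10 CPM in MA-10 and STARKO1 cells (SD, n = 3 each). Its log2 fold change was 0.16 (adjusted p = 0.707, edgeR) and turned to -0.052 without MA-10 replicate 2. The related receptor genes Flt3 and Kdr were not analysed here.

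Among 42 tested adaptors and effectors 2 passed (4.76%, against 9.04% of all genes tested). Pik3r1 rose and Jak2 fell. Pik3r1 encodes the p85 alpha subunit through which phosphatidylinositol 3-kinase binds phosphorylated PDGF receptors and Kit. It had 42.4, 29.0 and 40.1 CPM in the MA-10 replicates and 88.0, 85.5 and 86.1 CPM in the STARKO1 replicates. All STARKO1 values were far above the MA-10 values, MA-10 replicate 1 included, and the log2 fold change was 1.22 (SE 0.187, adjusted p = 0.0155, edgeR). Jak2, a cytoplasmic tyrosine kinase, went from 32.5 ± 1.53 to 18.9 ± 2.53 CPM (SD, n = 3 each), with log2 fold change -0.78 (SE 0.163, adjusted p = 0.0360, edgeR). For Jak2 it was -0.64 with upper quartile scaling (adjusted p = 0.0784, edgeR) and -0.36 with library size alone (adjusted p = 0.40, edgeR). Plcg1, phospholipase C gamma 1, had 137 ± 32.2 and 114 ± 0.729 CPM in MA-10 and STARKO1 cells (SD, n = 3 each), with a log2 fold change of -0.27 (adjusted p = 0.353, edgeR) that turned to 0.14 with library size alone. Ptpn11, the phosphatase SHP2, is not among these 42 but is counted in the list of negative regulators described next. It had a log2 fold change of 0.16 (adjusted p = 0.512, edgeR).

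The list of negative regulators, which also holds regulators of other growth factor receptors, gave 4 of 25 tested genes, 3 higher and 1 lower in STARKO1 cells. The 4 are 16% of those tested in the list, against 9.04% of all genes tested. Cblb, a ubiquitin ligase that marks active receptors for degradation, rose from 22.8 ± 3.92 to 43.6 ± 3.28 CPM (SD, n = 3 each, log2 fold change 0.94, adjusted p = 0.0289, edgeR). Errfi1, an inhibitor of EGF receptor kinases, rose from 10.6 ± 2.05 to 19.3 ± 1.45 CPM (SD, n = 3 each, adjusted p = 0.0428, edgeR). Lrig1, a membrane protein that lowers growth factor receptor levels, rose from 2.10 ± 1.76 to 9.71 ± 0.484 CPM (SD, n = 3 each), with log2 fold change 2.15 (SE 0.512, adjusted p = 0.0484, edgeR). MA-10 replicate 1 had 4.12 CPM of Lrig1 and the other two MA-10 libraries 0.954 and 1.23 CPM, and without MA-10 replicate 1 the log2 fold change was 3.23. Rasa1, a Ras GTPase-activating protein that binds PDGF receptors, fell from 104 ± 17.2 to 61.1 ± 0.494 CPM (SD, n = 3 each, log2 fold change -0.77, adjusted p = 0.0410, edgeR). The log2 fold change of Rasa1 was -0.62 with upper quartile scaling (adjusted p = 0.0700, edgeR). With library size alone it was -0.32 (adjusted p = 0.377, edgeR). Cbl itself had a log2 fold change of 0.42 (adjusted p = 0.338, edgeR), with 41.9 ± 18.3 and 56.1 ± 1.86 CPM in MA-10 and STARKO1 cells (SD, n = 3 each).

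Genes whose transcription ERK signalling is known to drive gave 3 of 7 tested genes, and they did not share a direction. The share was 42.9%, against 9.04% of all genes tested. With the replicate block 1 of the 7 passed, where 1.96% of all genes did. With library size alone 0 of the pathway genes passed, where 2.76% of all genes did. Etv4, an ETS transcription factor gene, had 3.44, 4.42 and 5.81 CPM in the MA-10 replicates and 0.559, 1.06 and 0.955 CPM in the STARKO1 replicates. Every STARKO1 library was below every MA-10 library, and the log2 fold change was -2.41 (SE 0.355, adjusted p = 0.0142, edgeR). Egr1, an immediate early zinc finger factor, had 6.53, 17.3 and 9.25 CPM in the MA-10 replicates and 2.80, 3.30 and 1.97 CPM in the STARKO1 replicates, with log2 fold change -2.03 (SE 0.409, adjusted p = 0.0335, edgeR). Dusp5, a nuclear ERK phosphatase, went the other way, from 5.57 ± 0.962 to 12.0 ± 1.20 CPM (SD, n = 3 each), with log2 fold change 1.10 (SE 0.201, adjusted p = 0.0259, edgeR). None of the 11 tested genes for ligand processing and extracellular partners passed with edgeR, while 5 had an unadjusted p under 0.05. DESeq2 called 4 of the 11, and 28.4% of all genes tested. Among the 11 pathway genes that passed, Etv4, Pik3r1, Pdgfrl and Dusp5 did so in 2 of 6 leave-one-library-out fits, and the other 7 in 1.

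**Figure D4:**
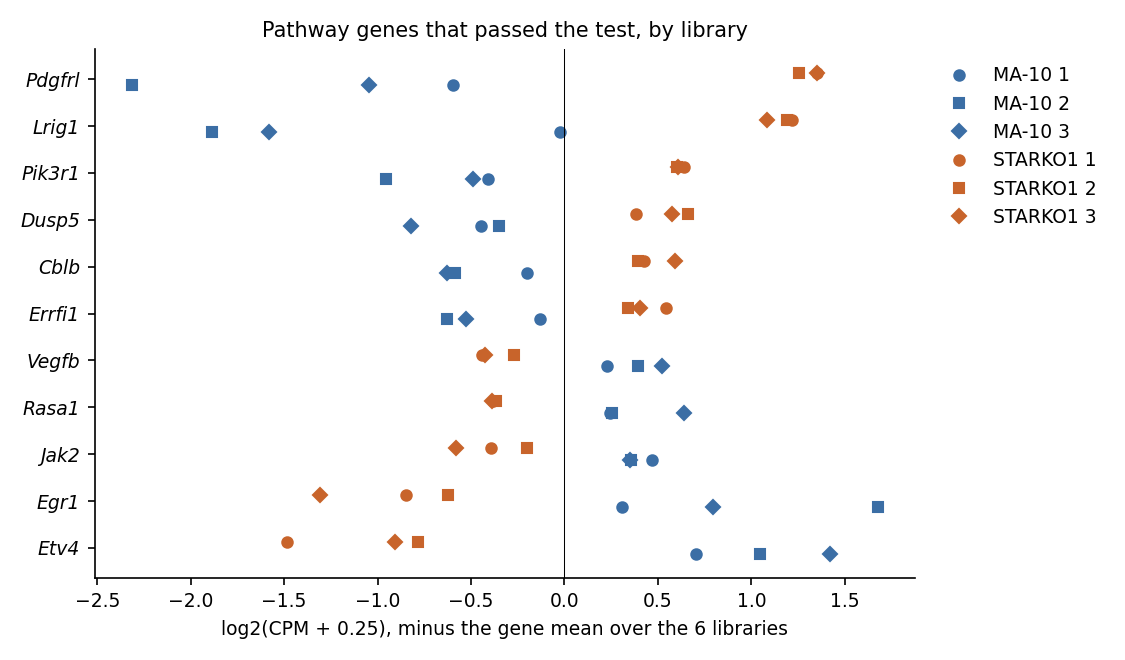
Levels of the 11 pathway genes that passed the test, as log2 of CPM plus 0.25 minus the gene's mean over the 6 libraries (horizontal axis), with blue for MA-10, orange for STARKO1, and circles, squares and diamonds for replicates 1, 2 and 3. The cell lines do not overlap for any of the 11 genes, and the spread within MA-10 cells is wide for Pdgfrl, Lrig1 and Egr1.

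The genes around Pdgfra and Kit were examined to see whether their neighbours differed too. Within 1000000 bases of either gene, 15 other genes were measured, 10 were tested and 1 (10%) passed with edgeR, against 9.04% of all genes tested. The libraries of the cell lines did not overlap for 5 of the 10, against 42.5% of all genes, and the median log2 fold change was 0.19. The gene that passed was Scfd2, a vesicle trafficking gene whose start lies at -947.5 kb from that of Pdgfra. It rose from 2.01 ± 0.888 to 5.42 ± 0.250 CPM (SD, n = 3 each), with log2 fold change 1.40 (SE 0.333, adjusted p = 0.0483, edgeR), and in the 6 leave-one-library-out fits it passed 1 time, without MA-10 replicate 1. Without that library 7 of the 10 genes (70.0%) passed, as did 65.7% of all genes, and without any other single library 0 did, with 3 or 4 at an unadjusted p under 0.05. Those other fits called 0.73% to 4.19% of all genes. With all libraries 5 had an unadjusted p under 0.05 and DESeq2 called 5 (50%), against 28.4% of all genes.

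Near Pdgfra, the tested gene with the nearest start was Gsx2, a homeobox gene, with 4.93, 2.86 and 2.11 CPM in the MA-10 replicates and 3.18, 3.24 and 2.98 CPM in the STARKO1 replicates. The MA-10 libraries lay on both sides of the STARKO1 libraries, and the log2 fold change of -0.09 (adjusted p = 0.856, edgeR) turned positive with library size alone, with upper quartile scaling and, to 0.42, without MA-10 replicate 1. Chic2 had a log2 fold change of -0.58 (adjusted p = 0.180, edgeR) and Fip1l1, a subunit of the polyadenylation machinery, of -1.16 (adjusted p = 0.0945, edgeR). Fip1l1 had 168.9, 513.7 and 490.0 CPM in the MA-10 replicates and 166.9 to 184.9 CPM in the STARKO1 replicates, so MA-10 replicate 1 lay within the STARKO1 range. Beyond Kit, Srd5a3 (0.70, adjusted p = 0.0694), Tmem165 (0.24, adjusted p = 0.268), Clock (0.15, adjusted p = 0.491), the pseudogene Ube2n-ps1 (0.81, adjusted p = 0.0970) and Exoc1 (0.52, adjusted p = 0.0595) had positive log2 fold changes that did not pass with edgeR. Cep135 had a log2 fold change of -0.46 (adjusted p = 0.274, edgeR), which turned to 0.054 with library size alone. The untested genes Rasl11b, Gm43747, Gm42576, Apc-ps1 and Gm7467 were below 1 CPM in every library.

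**Figure D5:**
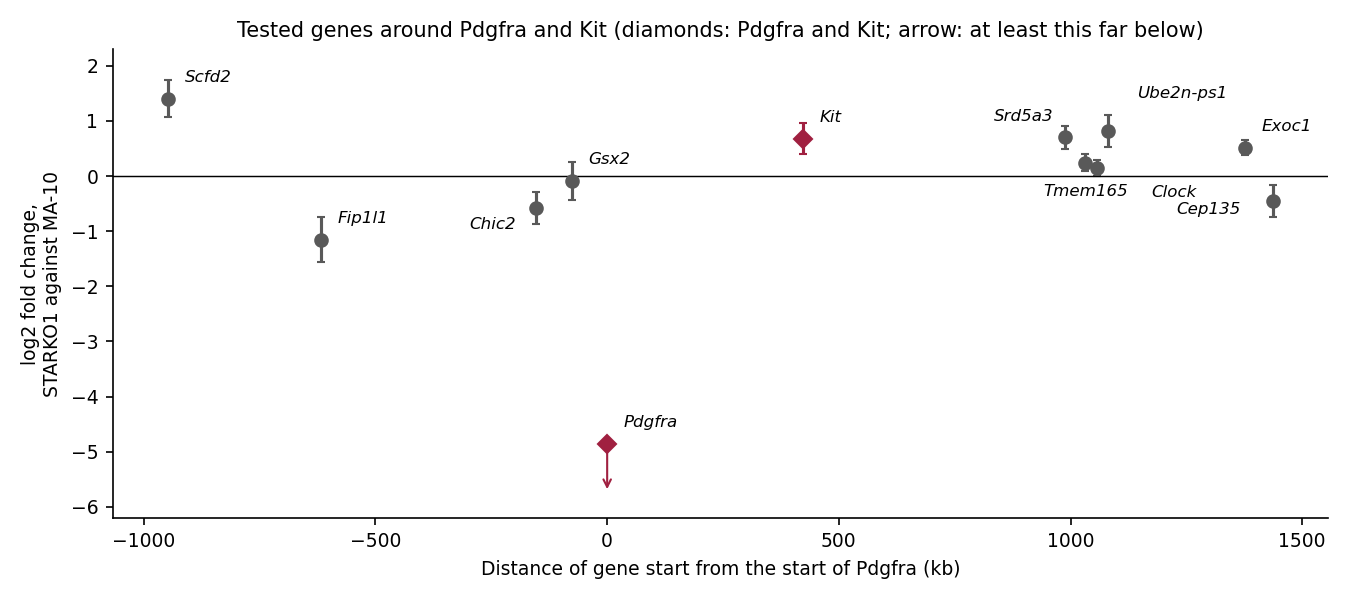
Log2 fold change, STARKO1 against MA-10 (vertical axis), of the tested genes around Pdgfra and Kit by the distance of their start from that of Pdgfra in kb (horizontal axis), with bars for the standard error and diamonds for Pdgfra and Kit. Pdgfra is drawn at its bound of -4.86 with an arrow, since its STARKO1 libraries were at the floor, and the other genes lie between -1.16 and 1.40.

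Markers of the labelled cell type and of other cells that carry these receptors were checked beside these results. All 12 Leydig markers were measured, with a summed level of 2214 to 2845 CPM in the MA-10 libraries and 1959 to 2046 CPM in the STARKO1 libraries. Cyp11a1, Hsd3b6 and Nr5a1 were the largest parts of these sums. Of the 11 tested Leydig markers 1 passed (9.09%, against 9.04% of all genes tested). It was Hsd3b1, a steroid dehydrogenase gene, which fell from 29.8 ± 6.67 to 5.19 ± 0.503 CPM (SD, n = 3 each, adjusted p = 0.00268, edgeR). Cyp11a1 and Hsd3b6 had log2 fold changes of -0.93 and -0.93 (adjusted p = 0.0670 and 0.0568, edgeR). Those of Cyp17a1, Fdxr and Nr5a1 were 1.27, 0.79 and 0.42 (adjusted p = 0.0949, 0.0878 and 0.189, edgeR). These other markers are named after their values were seen. Hsd17b3, which marks adult Leydig cells, was at 4 counts or fewer in every library, and is named after its values were seen. For pericytes and smooth muscle, where Pdgfrb is a usual marker, 5 of 11 markers were measured, with sums of 42.3 to 60.3 CPM in MA-10 and 35.7 to 39.0 CPM in STARKO1 libraries. In that list Cspg4, the proteoglycan NG2, was higher in STARKO1 cells by at least 11.9-fold (adjusted p = 0.00268, edgeR) and Des, which encodes desmin, fell from 15.4 ± 4.15 to 1.93 ± 0.554 CPM (SD, n = 3 each, adjusted p = 0.00500, edgeR). For Leydig progenitors and stroma, where Pdgfra is a usual marker, 5 of 12 markers were measured, with sums of 101 to 194.7 CPM in MA-10 and 173.8 to 178.3 CPM in STARKO1 libraries. Lifr, the receptor for leukemia inhibitory factor, did not exceed 3 counts in any MA-10 library and was higher in STARKO1 cells by at least 10.2-fold (adjusted p = 0.00981, edgeR), and it passed in 2 of 6 leave-one-library-out fits. Its log2 fold change was 5.55 with all libraries and 4.92 without MA-10 replicate 1.

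Sertoli markers, of which 4 of 10 were measured, summed to 414.6 to 600.3 CPM in MA-10 and 611.4 to 632.5 CPM in STARKO1 libraries, most of it Rhox5, a homeobox gene (389.7 ± 100.3 and 558.9 ± 10.8 CPM, SD, n = 3 each, adjusted p = 0.153, edgeR). Of the 4, Inha, the inhibin alpha subunit gene, was lower in STARKO1 cells (log2 fold change -0.94, adjusted p = 0.0328, edgeR), a call that held in 1 of 6 leave-one-library-out fits and was lost with upper quartile scaling (adjusted p = 0.0619) and with library size alone (adjusted p = 0.257). Gata1 had a log2 fold change of 1.09 (adjusted p = 0.0564, edgeR) and Dhh of 0.03 (adjusted p = 0.894, edgeR). Rhox5, Gata1 and Dhh are named after their values were seen. Endothelial markers, 4 of 9 measured, summed to 27.2 to 43.1 CPM in MA-10 and 119 to 126 CPM in STARKO1 libraries, nearly all of it Cdh5, which encodes VE-cadherin (33.8 ± 7.61 and 120.6 ± 3.01 CPM, SD, n = 3 each, adjusted p = 0.00596, edgeR). Egfl7 went the other way (0.83 ± 0.27 and 0.29 ± 0.06 CPM, SD, n = 3 each) and did not pass the filter. For Pecam1 and Robo4 the cell lines overlapped (adjusted p = 0.336 and 0.239, edgeR). Egfl7, Pecam1 and Robo4 are named after their values were seen. Germ cell markers, 2 of 10 measured, summed to 2.29 to 3.67 CPM in MA-10 and 2.14 to 2.95 CPM in STARKO1 libraries. Markers of mast cells, macrophages and other blood cells, 2 of 10 measured, summed to 0.344 to 3.12 CPM in MA-10 and 0 to 0.129 CPM in STARKO1 libraries, and neither passed the filter. Markers without a row in the table were not analysed here. The part of these markers in the levels of Pdgfra, Pdgfrb, Kit and Kitl was not tested.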

How the data were processed

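RNA of 3 MA-10 and 3 STARKO1 libraries was compared. The authors deposited estimated counts per gene and library, not normalized, with replicates kept apart. The submitters' processing notes name STAR 2.6.1d, Partek and mm10, without roles. The counting program and its strand setting are not given in the sources used here, and the paper names no test for these counts. A value was not whole (over 1e-06 from whole) in at least 1 library for 8006 of 14774 genes, and every gene had at least 10 counts in total.

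Rounded to whole numbers, the values were filtered by filterByExpr and scaled by TMM in edgeR 4.0.16 (R 4.3.3), and MA-10 was tested against STARKO1 by quasi-likelihood, with Benjamini-Hochberg adjustment over all genes tested. The standard error is the log2 fold change divided by the square root of F. A gene with no library of a cell line above 3 counts was at the floor there. Its fold is a bound, the mean of the other cell line over the highest floor, for counting error only. CPM are relative to the TMM-scaled library size, as mean ± SD. Log2 CPM for the likeness had a prior count of 2 and a minimum mean of 1 CPM. Coordinates and exon lengths came from GENCODE on GRCm38, in which 14677 genes were found by symbol and chromosome and 14634 had the same start. The totals, 14114351 to 19530062 counts, leave little counting error except for genes near the floor. Summaries used Python 3.11.15 with pandas 2.3.3 and numpy 2.4.6, plots used matplotlib 3.10.9, and the scripts were tested on simulated data.

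The genes and lists were chosen with earlier results of these data known. The genes named are the 7 of the set, the genes of each pathway list that passed (at most 6 per direction), Pdgfd, Plcg1, Pik3r1, Cbl, Ptpn11, Flt3, Csf1r and Kdr whatever their result, every gene of the Pdgfra and Kit region, the markers that passed (at most 4 per list), and the 3 genes most like Kit and Pdgfra. Genes outside this rule are marked as such. Alternatives were DESeq2 1.42.0, upper quartile scaling, library size alone, no filter, a minimum of 10 counts per library, a replicate block, and leaving out each library in turn.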

Additional observations from a re-analysis of the deposited data

How the results depend on the processing

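The count of differentially expressed genes, 1079, was 3395 with DESeq2 (38.7% of them higher in STARKO1 cells, against 47.5%), 330 with library size alone (63.6% higher), 695 with at least 10 counts in every library, 234 with the replicate block, and 89 (without STARKO1 replicate 1) to 7990 (without MA-10 replicate 1) when 1 library was left out. The share called of all genes tested was 28.4% with DESeq2 and 6.94% with upper quartile scaling. It was 2.76% with library size alone and 1.96% with the replicate block. It was 6.41% with no filter and 6.44% with at least 10 counts in every library. The count of pathway genes, 11, was 25 with DESeq2, 6 with upper quartile scaling, 0 with library size alone, 1 (Etv4) with the replicate block, and 0 to 65 when 1 library was left out. In the region of Pdgfra and Kit, 1 gene became 5 with DESeq2, 0 with upper quartile scaling, library size alone, no filter, at least 10 counts in every library or the replicate block (5 at an unadjusted p under 0.05 in each), and 0 to 7 when 1 library was left out. Of the 27 markers tested, 6 passed (22.2%, against 9.04% of all genes), and 11 did with DESeq2 (40.7%, against 28.4%). Without MA-10 replicate 1 the count was 19 of 28 (67.9%), where 65.7% of all genes passed. Without any other single library it was 4 to 6 (13.8% to 22.2%), against 0.73% to 4.19% of all genes. Log2 fold changes that changed sign were those of Cep135 (0.054), Pdgfd (0.065), Plcg1 (0.14) and Gsx2 (0.26) with library size alone, and of Gsx2 (0.026) with upper quartile scaling. Leaving out 1 library gave -0.32 to 0.42 for Gsx2 and -0.052 to 0.62 for Csf1r. The cause of these shifts was not tested.

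Libraries of both cell lines carry the numbers 1 to 3, but no source names a block, so the number was not taken as a pairing. The deviations of same-numbered libraries from their cell line means had r = -0.0166, 0.0455 and 0.0201 over 11939 genes. These values cannot settle whether a preparation was shared, since MA-10 replicate 1 stood apart and the STARKO1 libraries differed little. With the replicate block the log2 fold changes were 0.75 for Kit, -0.70 for Kitl and -0.54 for Pdgfb. For Kit the lowest and highest without 1 library were 0.49 and 1.13, for Kitl -0.72 and -0.59, and for Pdgfb -1.16 and 0.34. A fit that leaves out a library has 2 of that cell line and assumes the same spread in both. Depth limits Pdgfrb and the STARKO1 level of Pdgfra, which lie near the floor of 3 counts.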

Other observations

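Among the pathway genes that did not pass the test, some lay near the threshold, and those shown by library were chosen after their values were seen. With edgeR, Yes1 (log2 fold change -0.88, adjusted p = 0.0574), Socs6 (-0.69, 0.0618), Plau (-0.58, 0.0623), Mapk3 (-0.60, 0.0674) and Vegfa (-0.68, 0.077) lay as near and were lower in STARKO1 cells. Pik3r2 (0.57, 0.0657) was higher. Sparc, which encodes an extracellular protein that binds PDGF-B, measured 308.6, 154.9 and 166.2 CPM for MA-10 replicates 1, 2 and 3, and 401.7 to 410.1 CPM in the STARKO1 libraries (log2 fold change 0.95, adjusted p = 0.0774, edgeR's quasi-likelihood test). Stat5a, a transcription factor gene that Kit and cytokine receptors act through, had 74.1, 31.8 and 34.8 CPM in the MA-10 replicates and 93.1 to 106.3 CPM in the STARKO1 libraries (log2 fold change 1.09, adjusted p = 0.0756, edgeR). In both genes MA-10 replicate 1 lay between the other MA-10 libraries and the STARKO1 libraries, as it did for Kit.

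Etv5, a relative of Etv4, had 45.8, 31.1 and 33.9 CPM in the MA-10 replicates and 20.3 to 22.3 CPM in the STARKO1 libraries (log2 fold change -0.78, adjusted p = 0.0517, edgeR). Gab2, an adaptor that couples Kit to SHP2 and phosphatidylinositol 3-kinase, had 109.8, 74.9 and 91.2 CPM in the MA-10 replicates and 52.9 to 57.7 CPM in the STARKO1 libraries (log2 fold change -0.73, adjusted p = 0.0544, edgeR). Socs2, a feedback inhibitor of cytokine and growth factor signalling, had 3.49, 4.34 and 3.61 CPM in the MA-10 replicates and 1.65 to 2.19 CPM in the STARKO1 libraries (log2 fold change -0.94, adjusted p = 0.0566, edgeR). For each of these 3 genes the STARKO1 libraries were below all MA-10 libraries with TMM, replicate 1 included. With TMM the cell lines did not overlap for 42.5% of all genes tested. Over the alternatives that kept all libraries, the highest log2 fold changes were -0.40 for Etv5, -0.34 for Gab2 and -0.48 for Socs2. The separation of the libraries under those alternatives was not examined for these genes.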
